A study of Mus musculus with 77 samples.

Results

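The regions described here are 863 stretches of autosomal DNA that carried an H3K27ac peak in every WT library of stimulated B cells and in no WT library of unstimulated ones. They were chosen as bases covered in all 6 WT H3K27ac lists at 24 h (3 of the mb1-cre system and 3 of the TAT-Cre system), merged when touching, of 500 bp or more, with no overlap with a peak of the 6 WT lists at 0 h. Of the 5153 autosomal regions that met the first part of the rule, these 863 were new and the other 4290 touched a peak in at least 1 WT list at 0 h and are called retained. The members were thus chosen by WT H3K27ac peaks, so every WT H3K27ac value given for them is a description with no test. The tests used the Xist fl/fl H3K27ac lists and the H3K27me3 and H2AK119Ub lists, none of which entered the rule.

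The study profiled histone marks by CUT&RUN, where a nuclease bound to an antibody cuts out the DNA of marked nucleosomes for sequencing, in splenic CD23+ B cells of female mice. Xist fl/fl;mb1-cre+ mice, in which Cre removes Xist throughout the B lineage, were compared with WT mice carrying mb1-cre+, and B cells of Xist fl/fl mice given TAT-Cre, a cell-permeant recombinase, in culture were compared with B cells of WT mice treated alike. Xist is the long non-coding RNA that silences one X chromosome in female cells. Cells were taken 24 h after addition of CpG at 1 µM, which activates Toll-like receptor 9, or unstimulated at 0 h. In the TAT-Cre system 80 µg of the enzyme was given for 45 min before CpG, so its cells at 0 h had received no Cre, and CpG, time in culture and TAT-Cre cannot be told apart at 24 h. Each group held 3 libraries, apart from H3K27me3 in the mb1-cre system, with 4 Xist fl/fl and 4 WT libraries at 24 h and 5 Xist fl/fl and 4 WT libraries at 0 h. Replicates are biological per the labels, which do not tie each to its own animal, and p-values cover no more than the spread between the libraries deposited. B cells are a mixed population even within the CD23+ gate, and a region marked in fewer cells and one marked more weakly in each cell cannot be told apart.

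H3K27ac marks active promoters and enhancers, and a region that gains it is commonly one where a signal-induced factor has recruited an acetyltransferase. H3K27me3 and H2AK119Ub are placed by Polycomb complexes PRC2 and PRC1, which keep developmental and lineage genes silent, and H3K27me3 and H3K27ac cannot sit on the same lysine. In B cells, Toll-like receptor 9 signals through MyD88 to NF-kB and AP-1, and leads to growth, division and cytokine release.

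Across the 77 deposited lists, length ran from 1336 to 10393 peaks for H3K27ac, from 1955 to 19074 for H3K27me3 and from 2004 to 40688 for H2AK119Ub, with read depths not given in the sources used here. Among these, WT H3K27ac lists held 5456 to 10009 peaks at 24 h, against 1336 to 4926 at 0 h, so longer lists and CpG go together. With every H3K27ac list trimmed to its 1336 peaks of highest total signal, the same rule gave 57 regions and 14 of the 863 were among them. Without the shortest WT list at 24 h (TAT-Cre replicate 2) it gave 1375. Of 30 follicular and mature B cell genes, 30 had an H3K27ac peak in all 6 WT lists at 24 h and 28 in all 6 at 0 h, while 0 of 8 erythroid, 2 of 18 myeloid and 1 of 10 NK cell markers had one in all 6 WT lists at 24 h and 0 in all 6 at 0 h. For T cell markers these counts were 3 of 19 at 24 h and 2 of 19 at 0 h. At Xist itself an H2AK119Ub peak was present in 0 of 3 mb1-cre Xist fl/fl lists at 24 h, against 3 of 3 WT lists, and over both systems and times in 7 of 12 Xist fl/fl lists, against 10 of 12 WT lists. An H3K27ac peak touched it in 1 of 12 Xist fl/fl lists, against 2 of 12 WT lists, and H3K27me3 in none. Peaks alone do not measure the deletion.

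The starts of 290 protein-coding genes lay in new regions, and 4 of them are shown because they stand for gene classes described later: a cytokine, a transcription factor, a cell cycle kinase and a glycolytic enzyme. Each line gives the 250 bases before an annotated start, from RefSeq (GRCm38.p6, the build of the deposited coordinates, mm10), read along the gene's strand. Capitals mark matches, on either strand, to 7 motifs: AP-1 (TGANTCA), the E-box (CACGTG) bound by Myc, NF-kB (GGGA, any base, TTTCC), ISRE (GAAA, any 2 bases, GAAA), PU.1 (GAGGAAG), the octamer (TGCAAAT) and the BATF-IRF composite (TTTC, any 4 bases, then the AP-1 letters, so that it always holds an AP-1 match).
Il6 (chr5:30012864-30013113, plus strand): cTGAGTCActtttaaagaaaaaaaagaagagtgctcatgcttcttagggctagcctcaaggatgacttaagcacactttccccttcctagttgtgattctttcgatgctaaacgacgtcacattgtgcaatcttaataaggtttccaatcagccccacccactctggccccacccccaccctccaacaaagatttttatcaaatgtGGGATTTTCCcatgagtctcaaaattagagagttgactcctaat
Batf (chr12:85686470-85686719, plus strand): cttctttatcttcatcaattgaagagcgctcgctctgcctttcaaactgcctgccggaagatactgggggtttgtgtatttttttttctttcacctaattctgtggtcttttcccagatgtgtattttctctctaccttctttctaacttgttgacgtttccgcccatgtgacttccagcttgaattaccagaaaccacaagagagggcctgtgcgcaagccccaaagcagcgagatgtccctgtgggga
Cdk6 (chr5:3343643-3343892, plus strand): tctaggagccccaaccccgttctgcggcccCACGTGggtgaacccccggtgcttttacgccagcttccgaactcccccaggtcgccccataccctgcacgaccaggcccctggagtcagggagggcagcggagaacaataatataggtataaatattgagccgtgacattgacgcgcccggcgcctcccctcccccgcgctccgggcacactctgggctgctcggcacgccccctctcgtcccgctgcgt
Ldha (chr7:46845554-46845803, plus strand): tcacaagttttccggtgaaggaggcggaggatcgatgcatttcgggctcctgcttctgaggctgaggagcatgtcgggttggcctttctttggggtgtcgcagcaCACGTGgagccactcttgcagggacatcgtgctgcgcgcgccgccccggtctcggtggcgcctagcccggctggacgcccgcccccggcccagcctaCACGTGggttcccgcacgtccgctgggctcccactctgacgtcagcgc

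The Il6 window held an AP-1 and an NF-kB match, Cdk6 held 1 E-box and Ldha 2, and the Batf window held none of the 7. The windows shown include every one with a match among the listed genes whose start lay in a new region. All the others held none of the 7, among them Ccl3, Mcm6, Mcm7, Cdk2, Pkm and another start of Ldha. Among 387 windows whose start lay in a new region, 10.1% held an E-box, against 8.69% of 2497 windows in retained regions and 6.02% of all 32851. AP-1 letters were in 4.39% of windows at new starts, in 5.45% at retained starts and in 6.75% of all, and NF-kB letters in 0.517%, 0.641% and 0.356%. PU.1 letters were in 8.53%, 14.6% and 10.6% of the same sets, ISRE letters in 1.29%, 3.60% and 2.98%, octamer letters in 2.58%, 2.96% and 3.56%, and the composite in 0, 0 and 0.0974%. Windows at new and at retained starts had the same median GC content of 58.8%, against 52.4% over all windows. These matches describe the letters in the windows only.

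New regions were narrower and lower in signal than retained ones. Their width had a median of 3808 bp (quartiles 3058 and 4806.5 bp, range 648 to 19218 bp), against a median of 5773.5 bp for retained regions, and 183 of them (21.2%) reached 5 kb, against 60.3% of retained regions. Together they covered 3694780 bases. Within each WT 24 h list peaks were ranked by total signal, and a new region's peak had a median percentile of 54.0, against 79.4 for retained regions. The nearest WT peak at 0 h was a median of 32283 bp away: 24 new regions had one within 1 kb, 204 at 1 to 10 kb, 428 at 10 to 100 kb and 207 beyond 100 kb. At 691 of them (80.1%) no 24 h peak over the region reached into a 0 h peak, and at the other 172 it did in some WT lists but never in all 6, so those regions are the flanks of wider peaks in part of the libraries. At the width limit, the narrowest members measured 648 bp (chr19:11586082-11586729, at Ms4a6d), 1030 bp (in Bach2) and 1046 bp (near Usp12), and the widest that missed it measured 434 bp on chromosome 1, 374 bp on chromosome 11 and 362 bp on chromosome 5.

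**Figure D1:**
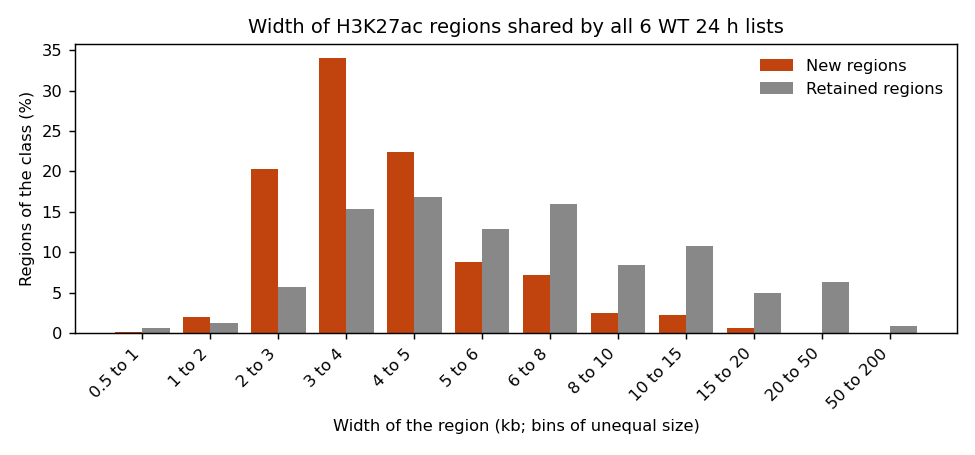
Width of new (orange) and retained (grey) H3K27ac regions, as the percent of each class (y axis) in bins of width in kb (x axis, unequal bins). Of the new regions, 76.7% were 2 to 5 kb wide, against 37.9% of retained regions, and 24 new regions reached 10 kb.

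New regions lay most often inside a gene body without its start. On the 18 autosomes of the table of starts (chromosome 18 was not analysed here), 250 of 833 new regions (30.0%) held an annotated start, against 39.2% of 4159 retained regions. A further 45.0% touched a protein-coding gene body without a start, against 46.1% of retained regions. Regions over 10 kb from any protein-coding gene were more frequent among new ones: 12.6% at 10 to 100 kb and 6.84% beyond 100 kb, against 7.55% and 2.28% of retained regions. By chromosome the new share of the 24 h regions ran between 10.95% (chromosome 13) and 21.8% (chromosome 12).

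Many new regions lay close to each other, and no such share was computed for retained regions. Of the 863, 343 (39.7%) had another within 100 kb and 101 (11.7%) within 10 kb, and 47 groups of 3 or more together held 165 of them. Neighbours are not all separate events: 105 new regions lay under the same peak as another new region in at least 1 WT 24 h list. The group with most members, 8 regions of 3716 to 15657 bp, spanned 226.8 kb of chromosome 15 (chr15:62236355-62463117), in and beyond Pvt1, a non-coding RNA gene downstream of Myc, and a group of 5 lay farther on (chr15:62725272-62825694). Each of these 13 regions had an H3K27ac peak in 4 to 6 of 6 Xist fl/fl lists at 24 h, against 0 or 1 of 6 at 0 h, and none had H3K27me3 in any list. A single new region of 2942 bp touched Myc itself, which encodes the growth-promoting transcription factor. It lay 1926 bp from a WT peak at 0 h, and Myc already had a peak in 5 of 6 WT lists at 0 h.

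Il6, a cytokine gene with no H3K27ac peak in any WT list at 0 h, stood at the end of a group of 7 new regions of 3419 to 6550 bp (chr5:29851394-30021407). The start of Il6 lay in 1 of them (3824 bp) and the next (4212 bp) also touched the gene, and both touched the overlapping lncRNA gene A230098N10Rik. All 7 had a peak in 4 to 6 of 6 Xist fl/fl lists at 24 h and in 0 of 6 at 0 h. Batf, an AP-1 family factor needed for class switching, also had no WT peak at 0 h and carried 3745 bp of new H3K27ac over its start. A region of 18248 bp lay farther along, after a gap, over the later part of the gene and past its end (chr12:85694226-85712473). In Xist fl/fl cells at 24 h the peak over the wider region ranked at percentiles 95.4, 95.1 and 95.3 in mb1-cre lists and 89.4, 72.9 and 92.2 in TAT-Cre lists, and at 0 h a single list of the 6 had one, at percentile 41.5. In WT cells at 24 h the same region ranked between percentiles 93.0 and 94.6 in the 6 lists. It ranked at percentile 92.2 or higher in 10 of the 12 lists at 24 h, and the 2 exceptions were TAT-Cre Xist fl/fl lists.

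Other wide regions lay at or near genes with known roles in B cells. Bach2, which keeps B cells from becoming plasma cells, held 5 new regions of 23881 bases in all, although its gene had other H3K27ac peaks in all 6 WT lists at both times. Its widest (12484 bp, chr4:32473707-32486190) was under peaks at percentiles 92.2 to 99.95 in WT lists at 24 h, some of which also covered neighbouring regions. Pax5, which maintains B cell identity, held the widest new region of all (19218 bp, chr4:44570593-44589810) and 2 more, 31242 bases in all, also beside peaks in all 6 WT lists at 0 h. A pair of regions of 15367 and 13833 bp lay 20258 and 51673 bp from Nfkbiz, which encodes an NF-kB cofactor induced by Toll-like receptors, and both had peaks in 6 of 6 Xist fl/fl lists at 24 h and 0 of 6 at 0 h. The rest of the 15 widest that touched a gene lay at Pvt1 (15657 bp), Jade2 (18384 bp), B4galt1 (13266 bp), Marchf3 (13351 bp), Tigit (11363 bp), Rnf111 (11256 bp), Elmo1 (11078 bp), Zcchc7 (10872 bp) and Hmgn3 (10824 bp).

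In all, 730 of 20665 protein-coding genes (3.53%) and 139 of 12408 lncRNA genes had a new region on the body or within 2 kb. Of the 730, 444 (60.8%) had no H3K27ac peak in any WT list at 0 h, 199 had one in 1 to 5 lists and 87 in all 6, so the first were newly marked genes and the last gained a site beside existing ones. The starts of 239 of the 444 lay in a new region.

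Among the listed genes, 13 of 19 lists had at least 1 gene with a new region and 6 had none, with no test. The lists hold 8 to 30 matched genes, so in most of them a single gene passes the 3.53% of all protein-coding genes. That background also includes unmarked genes: 12260 of the 20665 had no H3K27ac peak in any WT list at 24 h, and 3722 had one in all 6. Of 20 cytokine and chemokine genes, 19 had no WT peak at 0 h and 4 had a new region: Il6, Il10 (4320 bp) and the neighbours Ccl3 and Ccl4, which share a region of 4209 bp. Il10 encodes an anti-inflammatory cytokine, and Ccl3 and Ccl4 encode chemoattractants of T cells and monocytes. Of 16 NF-kB genes, 3 had one: Tnip1 (7313 bp), an A20-binding inhibitor, Nfkbib (3089 bp, over its start), an IκB that holds NF-kB in the cytoplasm, and Rela (2830 bp), the p65 subunit. At 0 h Tnip1 already had a peak in 5 of 6 WT lists and Rela in 2 of 6, and Nfkbib in 0. AP-1, BATF and IRF factors gave 2 of 22 genes, among them Batf, and immediate early genes gave Myc of 16. Of 30 activation genes only Bcl2l1 and Gadd45b, a survival factor and a stress-response gene, had a new region, while 12 of the 30 already had a peak in all 6 WT lists at 0 h. Plasma cell and germinal centre genes gave Ell2, an elongation factor that favours secreted immunoglobulin mRNA, and Zbtb32 of 20.

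Genes of growth and division also had new regions. Of 28 cell cycle and replication genes, 5 had new regions: Cdk6 with 3 (18159 bases), Ccnd2 (4828 bp), Mcm6 (4309 bp), Mcm7 (2765 bp) and Cdk2 (2730 bp). Cdk6 already had other H3K27ac peaks in 5 of 6 WT lists at 0 h. Cdk6 and Ccnd2 form a G1 kinase with its cyclin, Cdk2 acts at the entry into S phase, and Mcm6 and Mcm7 are subunits of the replicative helicase. Ribosome biogenesis and Myc target genes gave Ddx21, Mybbp1a and Ldha of 23, and metabolism gave Pkm, the last enzyme of glycolysis, and Tfrc, which takes up iron, of 18. Housekeeping genes gave a similar share, Gapdh and Tbp of 14, both over the start and with no WT peak at 0 h; each of these regions also touched a neighbouring gene (Iffo1 and Psmb1). T cell markers gave 1 of 19 and NK cell markers Klrb1c of 10, while chemokine receptors (14), Toll-like receptors and adaptors (18), cytokine signalling (18), developmental Polycomb targets (30), myeloid (18) and erythroid markers (8) gave none.

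**Figure D2:**
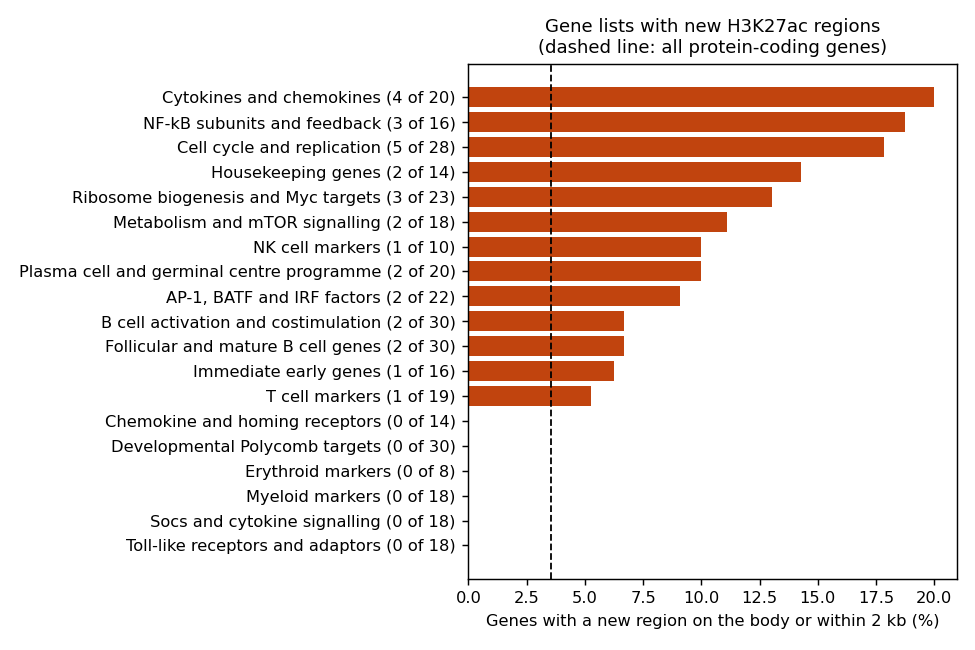
Percent of the genes of each list with a new H3K27ac region on the body or within 2 kb (x axis), with counts in the row labels and all protein-coding genes as the dashed line at 3.53%. Cytokine, NF-kB and cell cycle genes had shares of 20%, 18.8% and 17.9%, housekeeping genes 14.3%, and 6 lists had none.

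In Xist fl/fl cells, which did not enter the rule, every one of the 863 regions had a peak in more 24 h lists than 0 h lists, against 2787 of the 4290 retained regions (65.0%). Of the retained regions 1372 had as many at both times and 131 (3.05%) fewer at 24 h. A peak in all 6 lists at 0 h, which leaves no room for more, was present at 1288 retained regions. In mb1-cre cells 858, 826 and 861 of them had a peak at 24 h, in lists of 9102, 7409 and 10215 peaks, against 6, 4 and 66 at 0 h, in lists of 3107, 3167 and 4731 peaks. In TAT-Cre cells 366, 228 and 731 had one at 24 h, in lists of 4292, 3669 and 6244 peaks, against 0, 383 and 1 at 0 h, in lists of 1508, 10393 and 1509 peaks. The groups did not overlap in mb1-cre cells and overlapped in TAT-Cre cells through 1 library, replicate 2 at 0 h, whose list was by far the longest of its group. Retained regions also had peaks more often in mb1-cre lists at 24 h (98.5 to 99.98%, against 69.5 to 89.6% at 0 h). Without that library 789 regions (91.4%) had a peak in none of 5 lists at 0 h, and 450 (52.1%) in none of 6 with it. In all 3 mb1-cre lists at 24 h 820 regions (95.0%) had a peak, and in all 3 TAT-Cre lists at 24 h 184 (21.3%).

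The test per region was an exact two-sided conditional test of how many lists held a peak, stratified by system, with Benjamini-Hochberg adjustment over 5197 regions (new, retained and 44 covered in all 6 WT lists at 0 h and outside the 24 h set). A region was called at an adjusted p below 0.05. The test called 0 new regions (background 0% in each direction). The smallest p it can give here, 0.005, had an adjusted value of 0.232. At an unadjusted p below 0.05, 268 new regions were higher and 0 lower at 24 h, against a background of 7.87% of regions higher and 0.115% lower. Limma on the percent of each region covered by peaks called 583 new regions higher and 0 lower at an adjusted p below 0.05, against a background of 22.8% of all regions higher and 0.327% lower. Without replicate 2 of the TAT-Cre cells at 0 h this count was 775 (background 33.2%). On lists trimmed to 1336 peaks limma called 18 new regions higher (background 3.04%) and 0 lower, of 145 lower in all; both settings were chosen after seeing the data. In the trimmed lists 14.8, 15.4 and 21.9% of new regions were marked in mb1-cre cells at 24 h, against 0.348, 0.232 and 1.62% at 0 h, and 3.24, 2.20 and 9.15% in TAT-Cre cells at 24 h, against 0, 0.116 and 0% at 0 h, with no overlap in either system. Of retained regions 42.9, 42.1 and 48.9% were marked in mb1-cre cells at 24 h, against 39.2, 38.1 and 42.3% at 0 h. In TAT-Cre cells these shares were 32.7, 30.2 and 35.1% at 24 h, against 32.6, 28.8 and 32.2% at 0 h. For retained regions the times overlapped in both systems. The part of list length in the calls was not tested. WT lists at 24 h covered all 863 by the rule, and H3K27ac was not tested between genotypes for that reason.

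**Figure D3:**
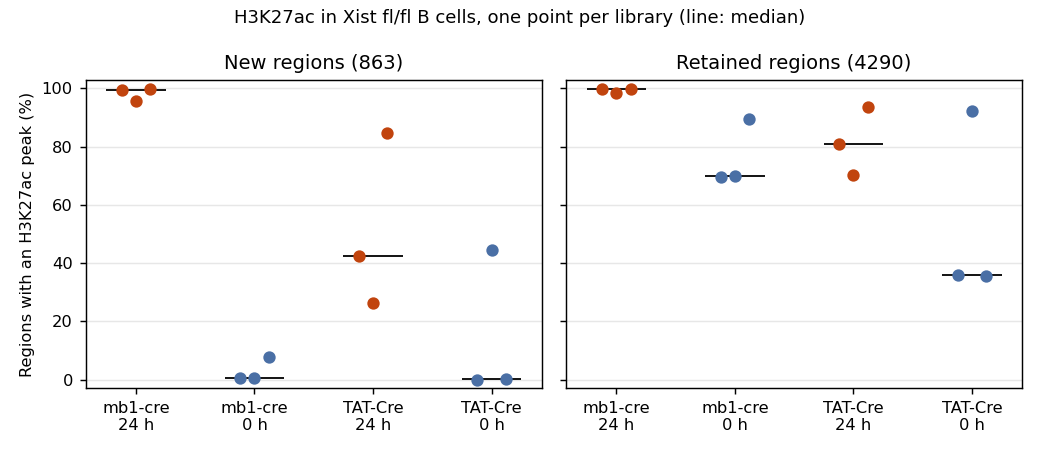
Percent of new (left) and retained (right) regions with an H3K27ac peak in each Xist fl/fl library (points; lines are medians of 3 libraries), at 24 h (orange) and 0 h (blue) in both systems. In mb1-cre cells 95.7 to 99.8% of new regions had a peak at 24 h, against 0.463 to 7.65% at 0 h, while 1 TAT-Cre library at 0 h reached 44.4%.

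The region at Vmac and Ndufa11 had a peak in the fewest Xist fl/fl lists at 24 h (1 of 6). A further 14 had one in 2 of 6, among them those at Calr, an endoplasmic reticulum chaperone, and Rac1, a small GTPase. Those with most Xist fl/fl lists at 0 h lay at Dido1 (3 of 6) and near Milr1 (3 of 6, 19 bp from a WT 0 h peak), followed by the wide region of Marchf3 (2 of 6).

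H3K27me3 was rare at new regions at either time. A peak was present in no list of either time at 809 of the 863 (93.7%), in at least 1 list at 24 h at 28 and in at least 1 list at 0 h at 51. Of the others, 3 had it at 24 h only and 26 at 0 h only. Per list, between 0 and 2.09% of new regions had a peak at 24 h (median 0.406%, 14 lists), against 0.348 to 4.29% at 0 h (median 1.62%, 15 lists). Retained regions had medians of 0.723% at 24 h and 0.629% at 0 h.

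Lower H3K27me3 at 24 h passed the test at 2 new regions, which were the only 2 of 5197 regions called lower (0.0385%), and higher H3K27me3 at 0 new regions (background 0.0192%; 0 at an unadjusted exact p below 0.05 and 0 by limma). One of the 2 lower regions lay in the array of variable segments of the immunoglobulin kappa light chain, at Igkv13-80-1 and Igkv4-80 (chr6:69008777-69018151, 9375 bp), with 0 of 7 Xist fl/fl lists and 0 of 7 WT lists at 24 h, against 7 of 8 Xist fl/fl lists and 5 of 7 WT lists at 0 h (exact test, adjusted p = 0.0442). Both calls were close to the adjusted limit of 0.05, and leaving out almost any 1 library lost them. With 25 of the 29 libraries left out in turn the count was 0, with 3 (TAT-Cre WT replicates 1 and 3 and Xist fl/fl replicate 2 at 24 h) it was 1, and only without TAT-Cre Xist fl/fl replicate 2 at 0 h did it stay at 2. The labels of mb1-cre Xist fl/fl replicate 5 disagree, with unstimulated cells in the title used here and CpG in the treatment field, and with it placed at 24 h the count was 0.

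Of the 863 regions, 1 had H3K27me3 in at least 8 of 14 lists at 24 h, against 10 in at least 8 of 15 lists at 0 h, a limit chosen after their values were seen. Since the 10 were picked for a high count at 0 h, their lower counts at 24 h are a description only. Among them, Ccnd2 had it in 6 of 14 lists at 24 h, against 14 of 15 at 0 h, and Il10 in 5 of 14 at 24 h, against 10 of 15 at 0 h. Lrrc32, which anchors latent TGF-beta, had it in 11 of 14 at 24 h, against 15 of 15 at 0 h. A region 173873 bp from Cxcr4 had 2 of 14 at 24 h against 12 of 15 at 0 h, one near Fcrlb 0 against 10, one 212636 bp from Tet2 0 against 9, and one at Marchf3 0 against 9. Of the 10, the 8 not called did not pass the adjusted threshold, with unadjusted exact p between 0.00034 and 0.2. At 9 of the 10 H2AK119Ub was present in all 12 lists at 0 h, and at 24 h it was there in 11 or 12 of 12 at 8 of the 10, in 7 at the Igkv13-80-1 region and in 9 near Tet2 (7 of 12 at 0 h).

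**Figure D4:**
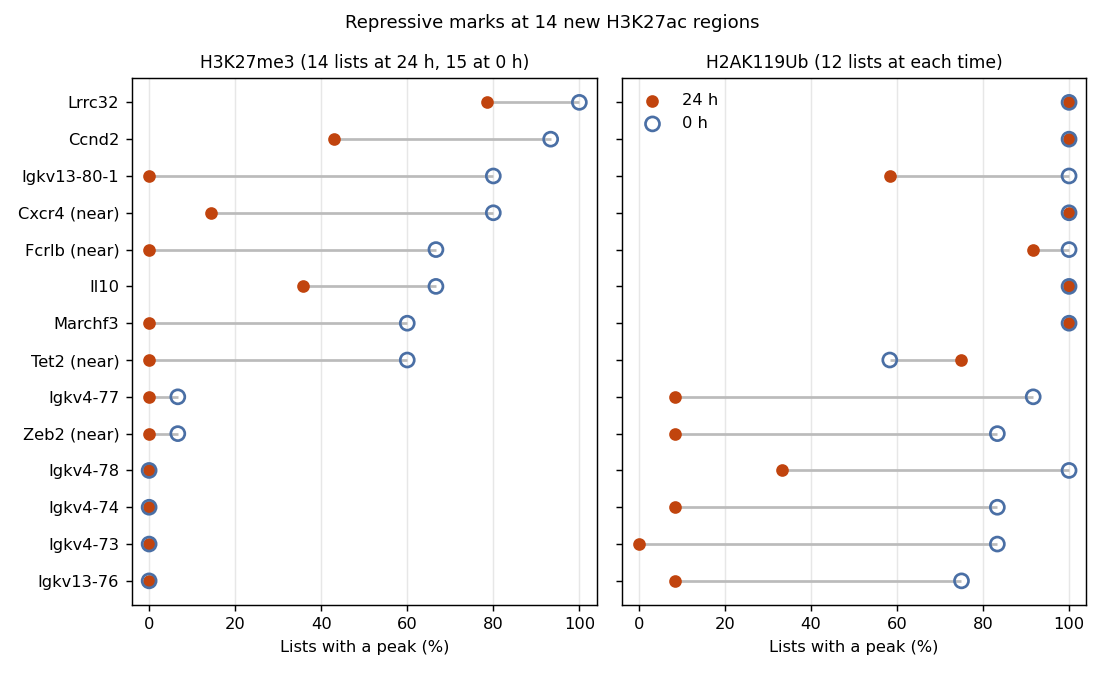
Percent of lists with a peak (x axis) of H3K27me3 (left) and H2AK119Ub (right) at 24 h (filled) and 0 h (open) at 14 of the 16 new regions with H3K27me3 in at least 8 lists at 0 h or called lower for either mark. The upper 8 rows have less H3K27me3 at 24 h with H2AK119Ub kept at most, and the lower 6, of which 5 are kappa variable segments, have less H2AK119Ub and little or no H3K27me3.

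H2AK119Ub was more widespread. It was present in none of 24 lists at 173 new regions (20.0%) and in all 24 at 11. More lists held it at 24 h than at 0 h at 512 regions, fewer at 113 and as many at 238. Higher H2AK119Ub at 24 h passed the test at 47 new regions (5.45%; background 12.5% of all regions, and 13.9% of retained ones), and lower H2AK119Ub at 6 (0.695%; background 0.269%, and 8 of 4290 retained regions). The share of higher calls was thus below the background. Limma on the covered percent called 130 new regions higher (background 25.1%) and 23 lower (background 0.847%).

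The calls for higher H2AK119Ub included regions at Alpl, which encodes an alkaline phosphatase (11 of 12 lists at 24 h, against 0 of 12 at 0 h, exact test, adjusted p = 0.00366), Dhx58, a cytosolic RNA sensor (11 against 0), Spag7 (11 against 0), Selplg, the ligand of P-selectin (11 against 0), Fbxo39 (12 against 1) and a site 19287 bp upstream of Batf (12 against 1), all at the same adjusted p. At Arhgef2 it was 12 against 2, at Rreb1 11 against 1, and near Wsb1 and Ypel2 10 against 0 (adjusted p = 0.00601 each). At Alpl the covered share of the region was 39.8, 73.0 and 30.3% in mb1-cre and 44.0, 53.7 and 39.6% in TAT-Cre Xist fl/fl lists at 24 h, and 82.1, 40.4 and 0% in mb1-cre and 67.4, 39.8 and 31.3% in TAT-Cre WT lists at 24 h, against 0% in all 12 lists at 0 h. Of the listed genes, Zbtb32 (12 against 4), Rela (9 against 1), Nfkbib (8 against 0) and Ldha (11 against 3) were called, with adjusted p of 0.0216, 0.0216, 0.032 and 0.0391 in that order by the exact test. The 47 regions had a median width of 3605 bp, 39.1% of the 46 on chromosomes with starts held one, and 14 had the mark in no list at 0 h.

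List length differed beside these calls, and its part was not tested. Lists held 9334 to 37328 peaks at 24 h, against 2004 to 40688 at 0 h, where 4 lists were under 3000. On lists trimmed to 2004 peaks 0 new regions were called higher and 15 lower, against 12 higher and 24 lower of all 5197 regions. Without the 4 short lists, which also leaves 8 libraries at 0 h, 6 new regions were called higher and 4 lower, against 74 and 7 of all regions. Leaving out 1 library gave 45 to 79 higher, with 74 without mb1-cre WT replicate 2 at 0 h, 79 without mb1-cre Xist fl/fl replicate 2 at 0 h, 73 without mb1-cre WT replicate 1, 71 without TAT-Cre WT replicate 3, and 73 and 76 without TAT-Cre Xist fl/fl replicates 1 and 2 at 24 h. Over all 5197 regions it gave 640 to 891 higher.

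Of the 6 new regions called lower for H2AK119Ub, 5 lay in the kappa variable array, at segments Igkv4-78, Igkv4-77, Igkv13-76, Igkv4-74 and Igkv4-73, which encode the antigen-binding part of kappa light chains. At Igkv4-73 (chr6:69196833-69201881) H2AK119Ub was present in 0 of 6 Xist fl/fl lists and 0 of 6 WT lists at 24 h, against 5 of 6 Xist fl/fl lists and 5 of 6 WT lists at 0 h (exact test, adjusted p = 0.00601). At Igkv4-77 (chr6:69109760-69114122) it was in 0 of 6 Xist fl/fl lists and 1 of 6 WT lists at 24 h, against 6 of 6 Xist fl/fl lists and 5 of 6 WT lists at 0 h (adjusted p = 0.00601). The other 3 had it in 4, 1 and 1 of 12 lists at 24 h, against 12, 9 and 10 of 12 at 0 h, and all 5 had an H3K27ac peak in 4 to 6 of 6 Xist fl/fl lists at 24 h and 0 or 1 of 6 at 0 h. The neighbouring Igkv13-80-1 region, called for H3K27me3, had H2AK119Ub in 7 of 12 lists at 24 h, against 12 of 12 at 0 h (adjusted p = 0.17, not passing). The whole array held 10 new regions, of which a further 1 was called higher for H2AK119Ub, 10 of 12 lists against 1. It also held 3 retained regions, of which 1 was called lower for H2AK119Ub (4 of 12 lists at 24 h, against 12 of 12 at 0 h), and 3 of the other retained regions called lower lay close together on chromosome 16 (the first at chr16:19002067-19035286). Kappa variable segments resemble each other, and the placement of reads that match several is a step not given in the sources used here. A sixth region lay far from any protein-coding gene, 1183302 bp from Zeb2 (chr2:46300745-46305453), with 1 of 12 lists at 24 h, against 10 of 12 at 0 h (exact test, adjusted p = 0.0204). Lower calls were made also on trimmed lists, and leaving out 1 library gave 6 to 9, against 14 to 19 of all 5197 regions.

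**Figure D5:**
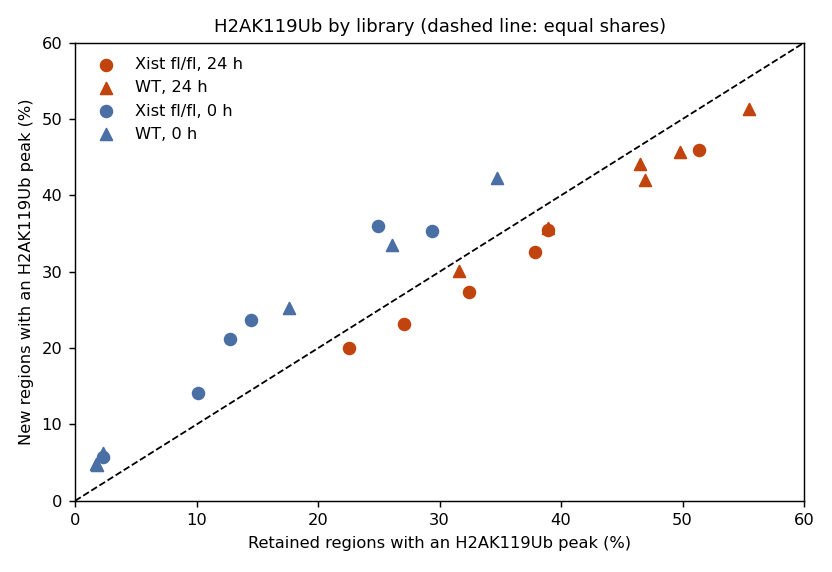
Percent of new (y axis) against retained (x axis) regions with an H2AK119Ub peak in each of 24 libraries, for Xist fl/fl (circles) and WT (triangles) at 24 h (orange) and 0 h (blue); the dashed line marks equal shares. All 12 libraries at 24 h lie below the line and all 12 at 0 h above it.

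Set against retained regions in the same library, a smaller percent of new regions had any H2AK119Ub peak at 24 h and a larger percent at 0 h. The percent of new regions with a peak divided by that of retained regions was 0.844 to 0.911 in Xist fl/fl and 0.896 to 0.953 in WT lists at 24 h, against 1.20 to 2.46 in Xist fl/fl and 1.22 to 2.82 in WT lists at 0 h. The times did not overlap in either genotype. On lists trimmed to 2004 peaks the ratio was 0.80 to 1.29 at 24 h (median 1.015), against 2.46 to 3.63 at 0 h, again without overlap. In trimmed lists at 24 h the percent of new regions was thus smaller in some libraries and larger in others. The ratio counts any overlap with a peak. By percent of bases covered, new regions had more H2AK119Ub than retained ones in every library at both times. At 24 h it was 25.2 against 17.5% in mb1-cre WT replicate 1 and 34.3 against 26.5% in TAT-Cre Xist fl/fl replicate 3. The classes were set by H3K27ac in WT cells and differ in width, so the ratio is given as a description with no test.

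Between genotypes no new region passed for either Polycomb mark (background 0% in each direction; mb1-cre at both times and TAT-Cre at 24 h as strata). The smallest p the exact test can give here is 0.00025 for H2AK119Ub and 5.67e-06 for H3K27me3. The smallest seen over all regions were 0.01 and 0.0429. For H2AK119Ub a region could pass the adjustment only if many regions reached that limit together, so the lack of calls does not show equal marks. For H3K27me3 0 new regions had an unadjusted exact p below 0.05 and limma called 0. For H2AK119Ub 6 new regions, and 25 of all 5197, were lower in Xist fl/fl cells at an unadjusted p below 0.05, 0 were higher, and limma called 0. They lay at Rpl11, Prpf31, Serpinb1b and Gm40608 and near Ube2e3 and Nfkb1, named here after their values were seen. In mb1-cre cells at 24 h 20.0, 23.2 and 35.5% of new regions had an H2AK119Ub peak in Xist fl/fl lists, against 30.1, 42.1 and 44.1% in WT lists, and these overlapped. In TAT-Cre cells at 24 h it was 27.3, 32.6 and 46.0% in Xist fl/fl lists, against 35.7, 45.7 and 51.3% in WT lists, with overlap. The lists differed in length the same way, with medians of 12808 and 26987 peaks in Xist fl/fl, against 20742 and 33586 in WT, and their part was not tested.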

How the data were processed

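The 77 CUT&RUN libraries of mouse splenic B cells have 1 deposited list of peaks each. The submitters' processing notes name Trimmomatic 0.32, Bowtie2 2.3.4.1, Picard, deepTools 3.5.1 and the build mm10, with no order. The lists carry the terms of the SEACR peak caller, whose control and scaling were not given in the sources used here. As unit, the deposited value columns hold signal (total and highest coverage under a peak), used here only to rank peaks within a list.

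Regions were built from the WT H3K27ac lists as stated in the report. A region or gene had a mark where a peak overlapped it by at least 1 bp, genes with 2 kb on each side, from RefSeq annotation of GRCm38.p6. For presence, an exact two-sided conditional test was stratified by system and genotype (24 h against 0 h) or system and time (Xist fl/fl against WT), with Benjamini-Hochberg adjustment over 5197 regions and a threshold of 0.05. Limma 3.58.1 on the covered percent was the other tool. Both were tested on simulated lists. Alternatives were other limits of width, overlap and list length, a presence filter, single genotypes, a replicate block and each library left out, and 3 (limma on trimmed lists for H3K27ac and H2AK119Ub, and without the longest 0 h list) were chosen after seeing the data. The text names the 15 widest regions, up to 6 per list of 19 gene lists, up to 10 called per mark and direction, and 3 at each limit of the rule. Members, lists and tests were chosen with earlier results of these data known. Some genes and regions are not reported here. Python 3.11.15 and R 4.3.3 were used.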

Additional observations from a re-analysis of the deposited data

How the results depend on the processing

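The number of new regions was 863, and 57 on trimmed lists, 548 in the upper 50% of peaks by highest signal (233 of the 863 overlapped), 1575 when 5 of 6 lists at 24 h sufficed, and 863 to 1375 with each WT library left out. It was within 1.5 times of 863 for the other width, gap and overlap limits. For H3K27ac in Xist fl/fl cells limma gave 583 higher, against 0 by the exact test; 775 without the longest 0 h list and 18 on trimmed lists were added after seeing the data.

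Counts over all 5197 regions, or all tested, are in brackets. Lower H3K27me3 at 24 h was called at 2 new regions (2), and at 1 with 50% of the region covered, on trimmed lists and in the upper 50% (1 each). It was called at 8 with a filter on presence (9 of 86 regions tested) and at 4 by limma (4). The count was 0 with replicate 5 at 24 h, in WT only or in Xist fl/fl only (0 each), and 0 to 2 with a library left out (0 to 2). Higher H2AK119Ub was called at 47 new regions (651), at 27 with 50% covered (261) and at 0 on trimmed lists (12). Limma called 130 (1305), and 8 on trimmed lists (55), a setting that was added. The count was 6 without the short lists (74), 0 in WT only or Xist fl/fl only (0 each) and 45 to 79 with a library left out (640 to 891). Lower H2AK119Ub was called at 6 new regions (14) and at 15 on trimmed lists (24). Limma called 23 (44), and 22 on trimmed lists (34), also added. The count was 0 in WT only or Xist fl/fl only (0 each) and 6 to 9 with a library left out (14 to 19). With 1 genotype the exact test has fewer libraries and cannot give as small a p. Trimmed lists hold fewer peaks by construction; otherwise the cause was not tested. Of the alternative values computed, 250 were within 1.5 times of the main count and 64 were not.

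With the replicate number as a block all counts were 0 (0 for lower H3K27me3, and 0 and 0 for H2AK119Ub), fewer libraries being exchangeable. Correlations of the deviations of same-numbered libraries ran between -0.31 and 0.44 and passed 0.1 in 1 of 12 pairs for H2AK119Ub, 6 of 14 for H3K27me3 and 0 of 6 for H3K27ac between times, and in 2 of 9 and 5 of 11 pairs for the 2 Polycomb marks between genotypes. Some pairs thus deviated together, but in no comparison did all, and the numbers were not taken as pairing in the main tests. The highest were between genotypes in mb1-cre cells. There H3K27me3 replicates 2 and 4 had 0.39 and 0.37 at 0 h and 0.37 and 0.38 at 24 h, and H2AK119Ub replicates 2 and 3 had 0.43 and 0.44 at 0 h. Whether these libraries share a preparation is not given and was not tested. Depth is unknown, and absence from a list is not absence of the mark.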

Other observations

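On the X chromosome, outside the rule, 8 of 73 regions covered in all 6 WT H3K27ac lists at 24 h (10.96%) had no peak in any WT list at 0 h, against 863 of 5153 (16.7%) on the autosomes. They measured 2779 to 5127 bp and had H3K27ac in 3 or 4 of 6 Xist fl/fl lists at 24 h, against 0 or 1 of 6 at 0 h. H3K27me3 was present there in 0 of 7 Xist fl/fl lists at 24 h and in 0 of 8 at 0 h, and in at most 2 of 7 WT lists at 24 h and 0 of 7 at 0 h. H2AK119Ub was present there in 0 or 1 of 6 Xist fl/fl lists at 24 h and 0 to 2 of 6 at 0 h, against 0 to 5 of 6 WT lists at 24 h and 0 to 3 of 6 at 0 h.

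The immunoglobulin heavy chain constant region held a group of 4 new regions (chr12:113292590-113367518), of which the widest (9280 bp) touched Ighg2b. H2AK119Ub was present there in 9 or 10 of 12 lists at 24 h, against 5 to 7 of 12 at 0 h, with no call.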
